A study of Mus musculus with 9 samples.

Results

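The 10 genes studied here encode sensors of cytosolic RNA and DNA and their closest adaptors and effectors, and they were followed in mouse ovarian tumor cells. The members were the RIG-I-like receptors Ddx58, Ifih1 and Dhx58, their adaptor Mavs, the DNA sensor Mb21d1 with its adaptor Tmem173, the endosomal RNA receptor Tlr3, and the nucleic acid-binding or nucleotide-controlling proteins Zbp1, Eif2ak2 and Samhd1. They were listed by gene symbol, with earlier results of these data known, and all 10 were found among the 48230 genes of the deposited expression table. The study asked what inhibition of salt-inducible kinases does in ovarian cancer. BeCon tumor cells grew in B6 mice that received either vehicle or YKL-05-099, an inhibitor of these kinases, and tumor cells were recovered from the ascites by sorting viable cells that were CD45- and MHCI+. There were 4 vehicle libraries, 4 YKL-05-099 libraries and 1 library of BeCon cells grown in vitro, for which no treatment other than culture is given. All groups carried the same tumor cells, so the controls share the BeCon genotype, whose alleles the labels do not state. The labels also do not state the dose, the duration of treatment, the age of the mice, or whether a library came from a single mouse or a pool. The p-values therefore measure only the spread between these libraries. The names of the vehicle libraries share a prefix that differs from the prefix of the treated ones, so a cage or handling group behind that prefix cannot be told apart from the treatment.

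Cells detect foreign or misplaced nucleic acids with a small set of receptors. RIG-I (Ddx58) and MDA5 (Ifih1) bind double-stranded RNA in the cytosol and signal through MAVS on mitochondria, and LGP2 (Dhx58) binds the same kind of RNA and modulates them without a signalling domain of its own. cGAS (Mb21d1) binds cytosolic DNA and makes the messenger cGAMP, which activates STING (Tmem173) in the endoplasmic reticulum, and both branches lead to the kinase TBK1, the factor IRF3 and type I interferon. Many of these sensors are themselves interferon-stimulated genes, and tumor cells can engage them through their own DNA or RNA.

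Levels are FPKM, fragments counted per length of transcript and per depth of the library, as deposited. The libraries held approximately 23000000 to 37000000 fragments each, and 11421 to 11893 genes reached an FPKM of 1 in a library. Of the epithelial and mesothelial markers, Wt1, Upk3b and Krt18 averaged 557 FPKM, 562 FPKM and 172 FPKM in the vehicle group, whereas Epcam, Cdh1, Pax8 and Wfdc2 averaged 0.457, 0.0423, 0.0431 and 0 FPKM there. Ptprc, which encodes the CD45 used to exclude leukocytes, averaged 0.520 ± 0.208 FPKM in the vehicle group and 0.130 ± 0.117 FPKM in the YKL-05-099 group (SD, n = 4 each). The summed level of 17 macrophage markers ranged from 249 to 568 FPKM in the vehicle libraries, from 31.2 to 108 FPKM in the YKL-05-099 libraries, and was 12.3 FPKM in the cultured library, where 10 of the 17 were listed at 0, C1qa, C1qb, C1qc, Adgre1, Tyrobp and Itgam among them. The summed level of 15 pan-leukocyte markers ranged from 35.1 to 67.8 FPKM, from 19.1 to 27.1 FPKM, and was 14.7 FPKM. Some other marker lists overlapped in their sums between vehicle and treated libraries. Dendritic cell and neutrophil markers ranged from 381 to 944 FPKM in vehicle and from 295 to 448 FPKM in treated libraries. Only 3 of these 10 markers reached an FPKM of 1 in every vehicle library. Epithelial and mesothelial markers and T, NK and B cell markers also overlapped. The sums of the following lists did not overlap. Red cell markers ranged from 244 to 1487 FPKM in vehicle and from 1.45 to 92.8 FPKM in treated libraries, and fibroblast and endothelial markers from 616 to 660 FPKM and from 522 to 604 FPKM. The genes of the sort gate, led by the MHC class I light chain B2m, ranged from 740 to 1077 FPKM in vehicle and from 1418 to 1556 FPKM in treated libraries. In these bulk libraries fewer cells of a type and less RNA per cell cannot be told apart.

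In tumor cells from YKL-05-099-treated mice, 6 of the 10 sensor genes were higher than in vehicle, 1 was lower, and 3 did not pass the test. The 6 were the 3 RIG-I-like receptors Ddx58, Ifih1 and Dhx58, the DNA sensor Mb21d1, and the effectors Zbp1 and Eif2ak2, with ratios of mean FPKM from 1.35 for Ddx58 to 2.54 for Zbp1. The adaptors Mavs and Tmem173 and the endosomal receptor Tlr3 did not pass the test, and Samhd1 was lower. The test was limma on log2(FPKM + 1), with a gene called at an adjusted p under 0.05, and it called 43.2% of all 11788 genes tested, with 28.0% called higher and 15.1% called lower, or 3304 against 1785 genes. Under median-of-ratios scaling of the FPKM, 2474 genes were higher and 2499 lower, while the sensor genes still gave 6 higher and 1 lower. Treatment differences were common in this table, and the count among sensors is read against that background. The groups did not overlap for 6 of the 10 sensor genes and for 40.0% of all genes tested. These were the same 6 genes, with every YKL-05-099 library above every vehicle library, a pattern that 26.5% of all genes tested showed. The median log2 fold change was 0.41 over the 10 sensor genes and 0.05 over all genes tested. All 10 passed the filter on low values, but Zbp1 reached an FPKM of 1 in only 2 of 4 vehicle libraries and so passed through the treated group, where it was high.

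**Figure D1:**
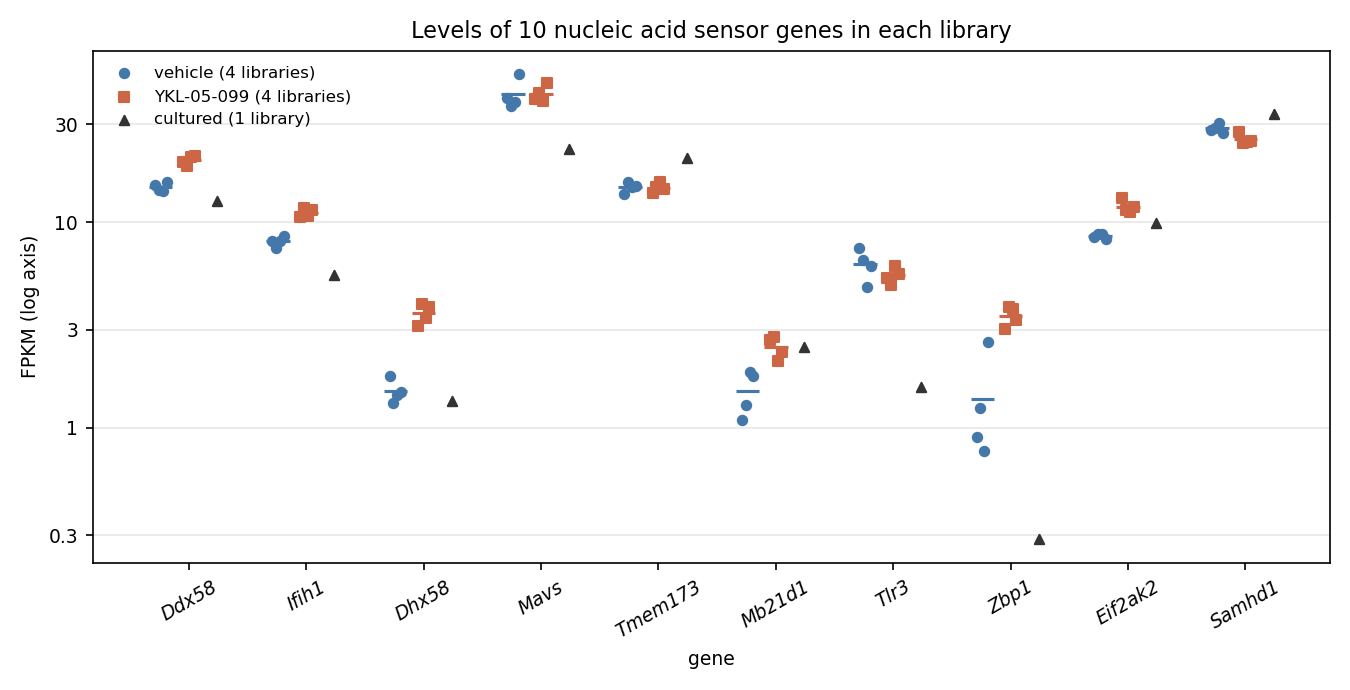
Level of each of the 10 sensor genes in every library, in FPKM on a logarithmic axis, with vehicle, YKL-05-099 and cultured libraries as separate points and horizontal bars at the means of the mouse groups. The YKL-05-099 points of Ddx58, Ifih1, Dhx58, Mb21d1, Zbp1 and Eif2ak2 sit above all vehicle points, while those of Mavs, Tmem173, Tlr3 and Samhd1 overlap them.

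The cytosolic RNA receptors rose together. Ddx58 encodes RIG-I, which recognises short double-stranded RNA with a 5′ triphosphate, and lies at chr4:40203773-40239828 on the minus strand of GRCm38. Its level was 15.1, 14.3, 14.3 and 15.8 FPKM in vehicle libraries 1 to 4, and 19.7, 18.9, 20.7 and 21.0 FPKM in YKL-05-099 libraries 1 to 4. The lowest treated library was above the highest vehicle library, and neither group had a library far from its fellows. The log2 fold change was 0.41 with a standard error of 0.0530 (adjusted p = 0.000303, limma).

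Ifih1 encodes MDA5, the receptor for long double-stranded RNA, at chr2:62595798-62646255 on the minus strand. Its level was 8.10, 7.53, 8.12 and 8.55 FPKM in the vehicle libraries and 10.6, 11.7, 10.7 and 11.5 FPKM in the treated ones. The groups did not overlap, and the ratio of means, 1.38, was close to that of Ddx58. On the log2 scale Ifih1 rose by 0.42, with a standard error of 0.0577 (adjusted p = 0.000422, limma).

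Dhx58 encodes LGP2, at chr11:100694884-100704271 on the minus strand, and was the RIG-I-like receptor with the lowest level. It measured 1.78, 1.32, 1.44 and 1.499 FPKM in the vehicle libraries and 3.14, 4.01, 3.43 and 3.89 FPKM in the treated ones. All 4 treated libraries were well above the highest vehicle library, and the ratio of means was 2.40. Dhx58 had a log2 fold change of 0.88, with a 95% interval from 0.68 to 1.08 (adjusted p = 8.62e-05, limma), an interval that does not reach that of Ddx58, 0.29 to 0.53, or that of Ifih1, 0.29 to 0.55. The gene overlaps the antisense gene Dhx58os, which reached at most 0.220 FPKM in any library. Mb21d1, Tlr3 and Eif2ak2 also overlap genes on the opposite strand. Where these have a value, they reached at most 0.0798, 0.104 and 0.381 FPKM in that order. No source used here states whether the counting used strand.

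Ratios among the RNA receptors were also formed within each library. The Dhx58 level per unit of Ddx58 level was 0.0922 to 0.117 in the vehicle libraries, 0.160 to 0.213 in the treated libraries and 0.106 in culture. Per unit of Ifih1, Dhx58 stood at 0.175 to 0.219, 0.297 to 0.342 and 0.242. The treated range was above the vehicle range for both ratios. By contrast, Ifih1 per unit of Ddx58 was 0.526 to 0.570 in vehicle and 0.516 to 0.622 in treated libraries, which overlap. These ratios were formed after the levels had been seen and are given as a description, with no test.

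**Figure D2:**
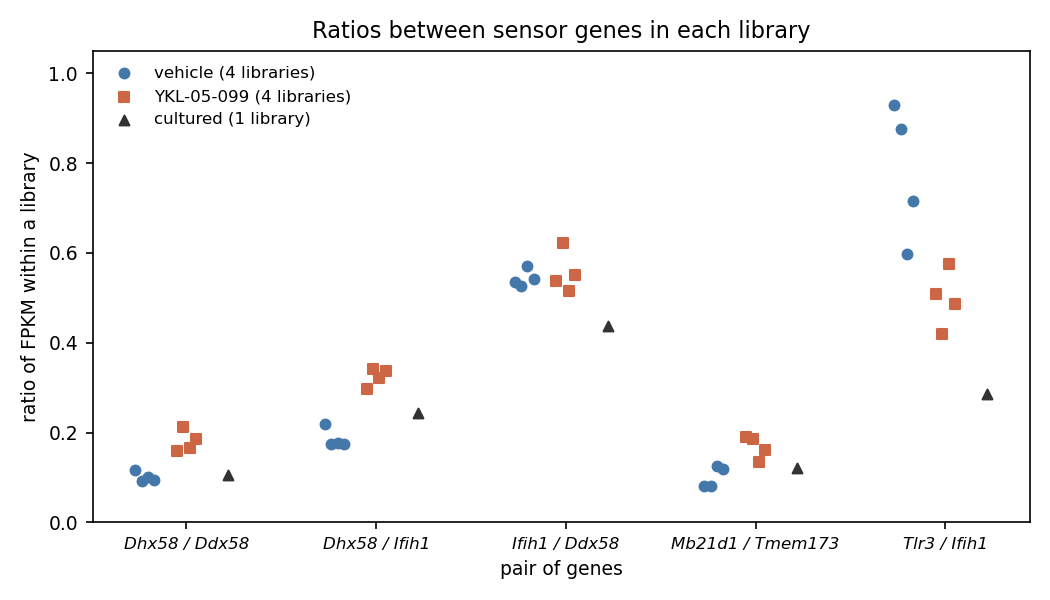
Ratio of FPKM between pairs of sensor genes within each library, with vehicle, YKL-05-099 and cultured libraries as points. Dhx58 relative to Ddx58 runs from 0.0922 to 0.117 in vehicle and from 0.160 to 0.213 in treated libraries, whereas Ifih1 relative to Ddx58 overlaps between the groups.

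Promoter sequence is shown for the RNA sensors that rose with a match to the interferon-stimulated response element (ISRE), the site bound by the interferon-activated complex that contains STAT2 and IRF9. RefSeq gives a window of 300 bases, from 250 before to 50 after the start of transcription on GRCm38.p6, for 7 of the 10 genes, and none was matched for Dhx58, Tmem173 or Zbp1. The ISRE core GAAANNGAA, searched on both strands, was present in 3 of the 4 genes called higher that have a window (Ddx58, Ifih1 and Eif2ak2, but not Mb21d1) and in 0 of the other 3 (Mavs, Tlr3 and Samhd1). Of all 32851 promoter windows of this length, 8.56% hold it. The windows follow RefSeq starts, which can lie inside the gene as annotated. The Tlr3 window (chr8:45410331-45410630) did not reach the gene's 5′ end at 45411080. That of Samhd1 (chr2:157135047-157135346) held fewer than 250 bases before the 5′ end at 157135265. For these genes the absence of a match covers only the window searched. The sequences are written 5′ to 3′ on the minus strand, from which all 3 genes are transcribed, and capitals mark the ISRE core or its reverse complement. The lines are the 250 bases before the Ifih1 start (chr2:62646256-62646505) and 30 bases around the matches that follow the starts of Ddx58 (chr4:40239804-40239833), Ifih1 (chr2:62646206-62646235) and Eif2ak2 (chr17:78882533-78882562).
Ifih1 before the start: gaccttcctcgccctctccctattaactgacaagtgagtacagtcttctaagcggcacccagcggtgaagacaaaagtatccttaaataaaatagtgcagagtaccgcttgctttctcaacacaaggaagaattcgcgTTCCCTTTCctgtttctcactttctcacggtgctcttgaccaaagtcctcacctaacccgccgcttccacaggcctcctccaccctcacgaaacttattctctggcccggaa
Ddx58 after the start: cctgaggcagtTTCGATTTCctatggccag
Ifih1 after the start: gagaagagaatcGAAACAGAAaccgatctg
Eif2ak2 after the start: tccgccggGAAAACGAAACAGAAgagaacc

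The Ddx58 match begins at base 4 after the start, so the first bases of its line lie before the start. The Ifih1 matches begin 112 bases before the start and at base 33 after it. Eif2ak2 holds 2 overlapping matches, at bases 19 and 25 after the start. The other motifs searched, on both strands, were the STAT site GAS (TTCNNNGAA), the cAMP response element TGACGTCA bound by CREB, and its short core TGACG. GAS was found in Eif2ak2, 178 bases before the start, and in Samhd1, 235 bases before it, and in 8.30% of all windows. The full cAMP response element was in none of the 7 windows and in 1.79% of all windows, and the short core was in Ifih1 alone among the 7 and in 20.8% of all windows. A match describes letters in a window, not a bound site.

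The adaptor downstream of the RNA receptors did not pass the test. Mavs, at chr2:131234063-131248025 on the plus strand, was the most abundant of the 10 in both groups of mice. Its level was 40.4, 37.0, 38.5 and 52.8 FPKM in the vehicle libraries and 39.9, 42.5, 39.0 and 47.8 FPKM in the treated ones. The groups overlapped throughout, with library 4 the highest in each. The log2 fold change was 0.01, with a 95% interval from -0.22 to 0.25 (adjusted p = 0.923, limma), and its sign turned with the scaling of the table, to -0.05 under median-of-ratios scaling and -0.02 under quantile normalization.

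Tlr3 encodes the receptor that binds double-stranded RNA inside endosomes and signals through TRIF rather than MAVS, and lies at chr8:45395665-45411080 on the minus strand. Its level was 7.52, 6.59, 4.85 and 6.12 FPKM in the vehicle libraries and 5.38, 4.93, 6.14 and 5.61 FPKM in the treated ones. The treated libraries lay inside the vehicle range. For Tlr3 the log2 fold change was -0.15, with a 95% interval from -0.40 to 0.10 (adjusted p = 0.299, limma). Relative to Ifih1 in the same library, Tlr3 stood at 0.597 to 0.929 in vehicle and 0.420 to 0.574 in treated libraries, ranges that do not overlap, which is again a description.

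In the DNA branch the sensor rose while its adaptor did not pass the test. Mb21d1 encodes cGAS, at chr9:78430526-78443237 on the minus strand, and was low in both groups. It measured 1.09, 1.29, 1.87 and 1.78 FPKM in the vehicle libraries and 2.66, 2.76, 2.12 and 2.33 FPKM in the treated ones. The groups did not overlap, although vehicle library 3 and treated library 3 were close. For Mb21d1 the log2 fold change was 0.48 with a standard error of 0.119 (adjusted p = 0.00969, limma), and the call was lost without the filter on low values (adjusted p = 0.0719).

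Tmem173 encodes STING, at chr18:35733679-35740554 on the minus strand. Its level was 13.7, 15.8, 14.8 and 15.1 FPKM in the vehicle libraries and 13.9, 14.9, 15.8 and 14.5 FPKM in the treated ones. The groups covered nearly the same range. The log2 fold change was -0.01, with a 95% interval from -0.14 to 0.12 (adjusted p = 0.922, limma), and its sign turned, to 0.0059, when the FPKM were rescaled to TPM, the length-scaled unit with the same sum in every library. The cGAS level per unit of STING level was 0.0798 to 0.126 in vehicle libraries, 0.135 to 0.191 in treated libraries and 0.121 in culture.

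Among the effectors, Zbp1 had the highest ratio of means of the 10 genes. It encodes a sensor of Z-form nucleic acids that engages RIPK3 to trigger necroptosis, at chr2:173206612-173218923 on the minus strand. Its level was 0.901, 1.25, 0.767 and 2.61 FPKM in the vehicle libraries and 3.02, 3.88, 3.78 and 3.34 FPKM in the treated ones. Vehicle library 4 stood well above the other vehicle libraries and just below the lowest treated one, so that the vehicle values varied by 61.1% of their mean. The log2 fold change was 0.97 with a standard error of 0.198 (adjusted p = 0.00350, limma), and it was 1.19 without vehicle library 4 (adjusted p = 5.24e-05). Without the filter on low values the call was lost (adjusted p = 0.0544).

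Eif2ak2 encodes PKR, the kinase that is activated by double-stranded RNA and phosphorylates the initiation factor eIF2 to halt translation. It lies at chr17:78852564-78882573 on the minus strand. Its level was 8.50, 8.79, 8.73 and 8.32 FPKM in the vehicle libraries, the tightest group of any sensor gene, and 13.2, 11.4, 11.3 and 11.9 FPKM in the treated ones. The groups were well separated. PKR's transcript had a log2 fold change of 0.43 with a standard error of 0.0584 (adjusted p = 0.000394, limma), close in size to those of Ddx58 and Ifih1.

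Samhd1 encodes the enzyme that breaks down deoxynucleotides and thereby limits the DNA that can be made or left in the cytosol, at chr2:157097533-157135265 on the minus strand. It was the only sensor gene called lower. Its level was 28.1, 28.9, 30.6 and 27.1 FPKM in the vehicle libraries and 27.6, 24.2, 24.8 and 24.9 FPKM in the treated ones. Treated library 1 lay inside the vehicle range, and the other 3 lay below it. Samhd1 had a log2 fold change of -0.17 with a standard error of 0.0549 (adjusted p = 0.0307, limma). The call was lost in 6 of the 8 fits that left out a library in turn, where the adjusted p ranged from 0.0136 to 0.0861.

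**Figure D3:**
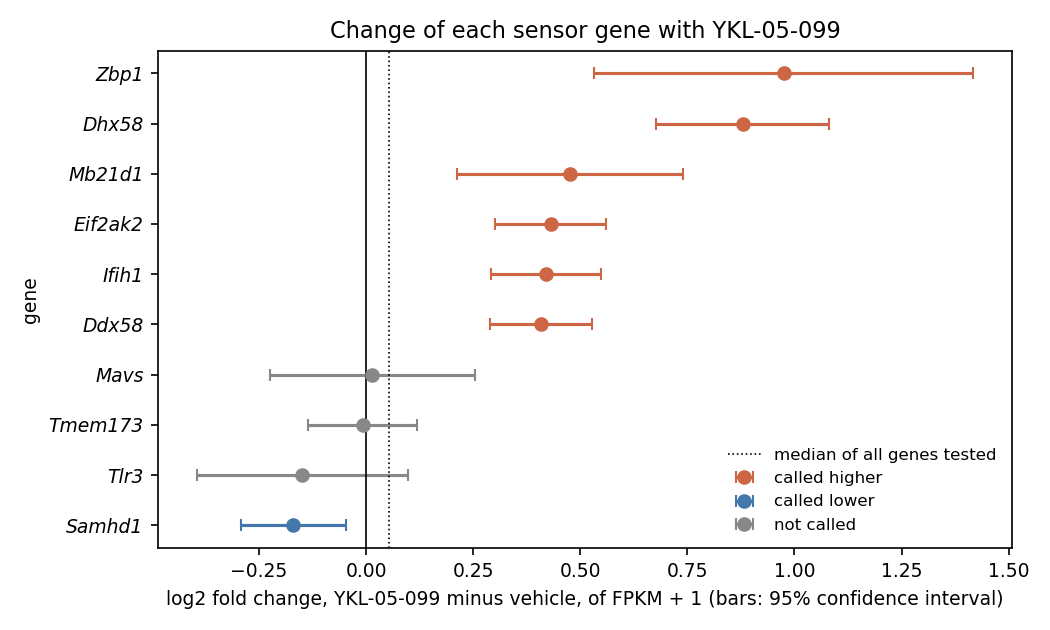
Log2 fold change of each sensor gene between YKL-05-099 and vehicle on the log2(FPKM + 1) scale, with 95% intervals from limma (n = 4 libraries each). The intervals of Ddx58, Ifih1, Dhx58, Mb21d1, Zbp1 and Eif2ak2 lie above 0, that of Samhd1 lies below 0, and those of Mavs, Tmem173 and Tlr3 include 0.

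The summed macrophage and pan-leukocyte markers described above, and the red cell and fibroblast and endothelial sums, were lower in every treated library than in every vehicle library, opposite to the 6 sensor genes that rose. The sort gate sum was higher in every treated library. Single markers overlapped between the groups, Cd68 and Coro1a among them. With the mean macrophage marker level as a covariate, the log2 fold changes of these 6 were 0.33 for Ddx58, 0.35 for Ifih1, 0.89 for Dhx58, 0.23 for Mb21d1, 1.00 for Zbp1 and 0.34 for Eif2ak2. Of all 10 sensor genes only Dhx58 was still called (adjusted p = 0.0360, limma), and the median standard error over the 10 genes was 0.154 in place of 0.0746. With the mean pan-leukocyte level as the covariate, they were 0.32, 0.33, 0.89, 0.18, 0.84 and 0.38 in the same order, and again only Dhx58 was called (adjusted p = 0.0332, limma). The mean marker levels of the groups do not overlap, so these fits separate covariate and treatment poorly. The part of RNA from other cells in these differences was not tested.

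**Figure D4:**
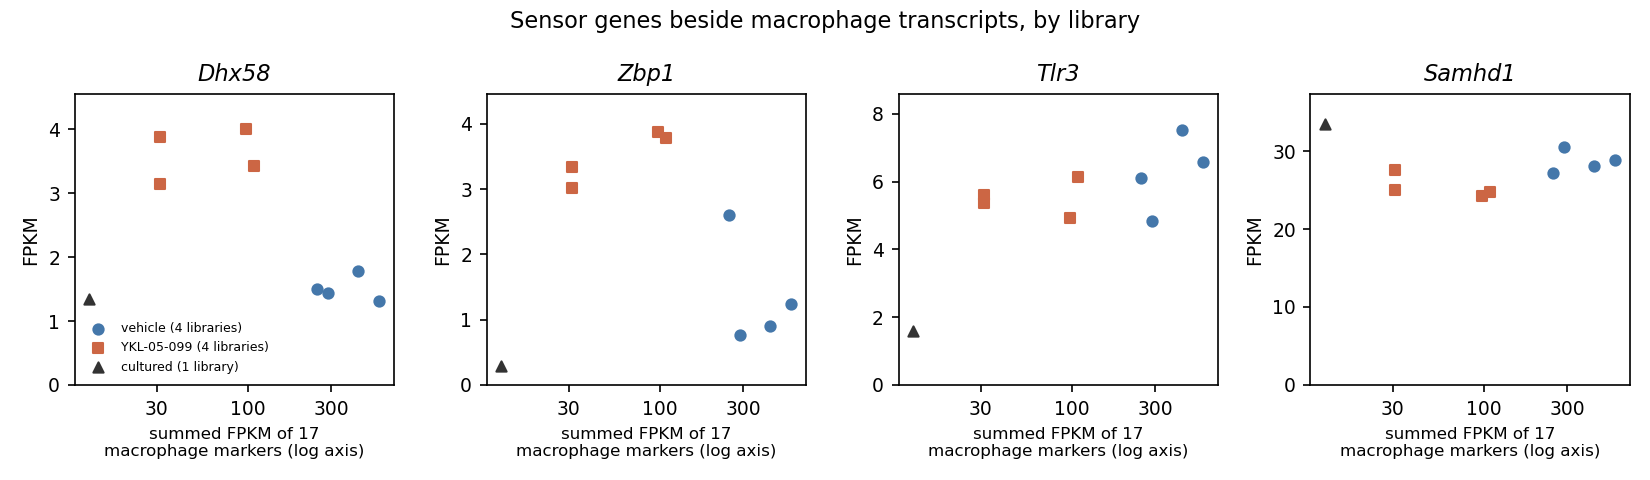
Level of Dhx58, Zbp1, Tlr3 and Samhd1 in FPKM against the summed FPKM of the 17 macrophage markers in each library, on a logarithmic horizontal axis. The vehicle libraries lie from 249 to 568 FPKM of macrophage markers, the YKL-05-099 libraries from 31.2 to 108 FPKM and the cultured library at 12.3 FPKM.

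The order of levels among the 10 genes was almost the same in both groups of mice. FPKM are scaled by transcript length, so genes can be compared. From highest to lowest mean, the vehicle order was Mavs, Samhd1, Ddx58, Tmem173, Eif2ak2, Ifih1, Tlr3, Dhx58, Mb21d1 and Zbp1. Neighbours whose vehicle values overlapped were Ddx58 with Tmem173, Eif2ak2 with Ifih1, Dhx58 with Mb21d1, and Mb21d1 with Zbp1. With YKL-05-099 the order was the same apart from the last pair, since Zbp1 came before Mb21d1, and Ddx58 was above Tmem173 in 4 of 4 libraries.

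Genes around the sensors were described from lists of pathway members, tested in the same fit across all genes, of which 28.0% were called higher and 15.1% lower. Of the regulators of RIG-I and MAVS, 11 were tested, of which 6 were higher with YKL-05-099, 3 were lower and 2 did not pass. Ddx60, a helicase that promotes RIG-I signalling, rose from 2.96 ± 0.315 to 4.83 ± 0.387 FPKM (SD, n = 4 each). The ubiquitin ligase gene Trim25, whose product modifies RIG-I, rose from 21.6 ± 2.33 to 28.9 ± 1.48 FPKM, and Zc3hav1, which encodes the antiviral zinc finger protein ZAP, from 24.1 ± 0.993 to 29.5 ± 1.12 FPKM. Tomm70a, for a mitochondrial import receptor that binds MAVS, fell from 19.2 ± 1.06 to 14.9 ± 0.637 FPKM. The list's median log2 fold change was 0.12.

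Of the 18 kinases, adaptors and transcription factors below MAVS and STING, 6 were higher, 3 were lower and 9 did not pass. The 9 of 18 called stand beside 43.2% of all genes, and the median of 0.06 was close to the 0.05 of all genes. Irf7, the interferon regulatory factor that amplifies interferon transcription, rose from 4.58 ± 0.186 to 15.4 ± 0.782 FPKM, a log2 fold change of 1.55 (adjusted p = 2.90e-07, limma). Irf3, the factor activated directly by these pathways, rose from 34.1 ± 2.41 to 43.9 ± 1.56 FPKM. Irf5 fell from 83.7 ± 5.23 to 56.3 ± 2.53 FPKM, and Tbkbp1, for a TBK1-binding adaptor, fell from 13.7 ± 1.65 to 7.21 ± 0.700 FPKM.

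Regulators of cGAS and STING were evenly divided, with 3 of 12 higher, 3 lower and 6 not passing, and a median of -0.01. The 6 of 12 called stand beside 43.2% of all genes. Trex1, the exonuclease that removes cytosolic DNA, rose from 8.66 ± 0.634 to 11.9 ± 0.924 FPKM. Enpp1, which hydrolyses cGAMP outside the cell, fell from 22.1 ± 2.74 to 14.9 ± 2.28 FPKM. Insig1, best known for holding back sterol synthesis, rose from 4.50 ± 0.0847 to 15.01 ± 2.70 FPKM.

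Of the genes for clearance and editing of nucleic acids, 4 of the 12 tested were higher and 0 lower. The share called was 33.3% beside 43.2% of all genes. Trex1, already counted among the regulators of cGAS and STING, is on this list too and was among these 4. Under median-of-ratios scaling the split was 3 higher and 1 lower, and under rescaling to TPM 4 higher and 1 lower. Adar, whose product edits double-stranded RNA and so hides it from MDA5, rose from 13.3 ± 0.533 to 17.3 ± 0.724 FPKM. Supv3l1, for a mitochondrial RNA helicase, rose from 8.87 ± 0.461 to 10.9 ± 0.138 FPKM. Skiv2l, for the helicase of the cytosolic exosome, rose from 20.8 ± 1.69 to 23.9 ± 1.09 FPKM with overlapping groups (adjusted p = 0.0310, limma).

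Other sensors of nucleic acids gave 3 higher and 2 lower of 13 tested, with 8 not passing and a median of -0.07. The share called, 38.5%, was below the 43.2% of all genes. Under median-of-ratios scaling the split was 3 higher and 5 lower. Mndal, of the interferon-inducible family that includes Aim2, rose from 12.6 ± 2.34 to 17.02 ± 0.406 FPKM, and Prkdc, the catalytic subunit of DNA-dependent protein kinase, rose from 3.32 ± 0.323 to 4.51 ± 0.239 FPKM. Xrcc5, for the Ku80 subunit that binds DNA ends, fell from 18.5 ± 0.397 to 15.7 ± 0.376 FPKM, and Mre11a, for a nuclease at DNA breaks, fell from 20.3 ± 0.152 to 17.3 ± 1.02 FPKM. The remaining 6 of the 19 listed, Aim2, Tlr7 and Tlr9 among them, were too low to be tested.

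Partners of TLR3 and ZBP1 gave 4 higher and 1 lower of 8 tested, or 62.5% called beside 43.2% of all genes. Cnpy3, whose product helps to fold Toll-like receptors, rose from 26.2 ± 3.23 to 35.3 ± 0.959 FPKM. Hsp90b1, for its chaperone partner, averaged 218 ± 41.1 FPKM in vehicle and rose to 302 ± 30.8 FPKM, with overlapping groups. Ripk1 rose from 12.9 ± 0.222 to 15.02 ± 0.442 FPKM. Casp8, for the protease that restrains necroptosis, fell from 34.6 ± 0.660 to 26.4 ± 0.905 FPKM. Ripk3, the kinase that ZBP1 engages, averaged 0.988 FPKM in vehicle and 0.592 FPKM in treated libraries and was under the filter.

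Beside Eif2ak2, the genes of eIF2, its exchange factor and its other kinases gave 7 higher, 5 lower and 6 not passing of 18, or 66.7% called beside 43.2% of all genes. The split was 4 higher and 5 lower under both median-of-ratios scaling and quantile normalization. Ddit3, which encodes the stress factor CHOP, rose from 23.6 ± 4.54 to 52.7 ± 3.61 FPKM, and Atf4, whose translation is favoured when eIF2 is phosphorylated, rose from 229 ± 17.1 to 284.9 ± 9.88 FPKM. Eif2s1, for the eIF2 subunit that PKR phosphorylates, fell from 20.1 ± 0.583 to 16.95 ± 0.493 FPKM, and Eif2b3, for a subunit of the exchange factor, fell from 10.05 ± 0.732 to 7.33 ± 0.439 FPKM.

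On the side of Samhd1, genes of deoxynucleotide supply gave 7 higher, 2 lower and 2 not passing of 11, or 81.8% called beside 43.2% of all genes, with a median of 0.28. Tk1, for cytosolic thymidine kinase, rose from 15.8 ± 2.13 to 32.0 ± 4.26 FPKM, and Tyms, for thymidylate synthase, rose from 17.3 ± 1.66 to 30.5 ± 3.34 FPKM. Dut, whose product clears dUTP, rose from 37.0 ± 0.662 to 53.4 ± 3.07 FPKM, and Dtymk, for thymidylate kinase, from 69.1 ± 1.53 to 83.6 ± 2.15 FPKM.

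**Figure D5:**
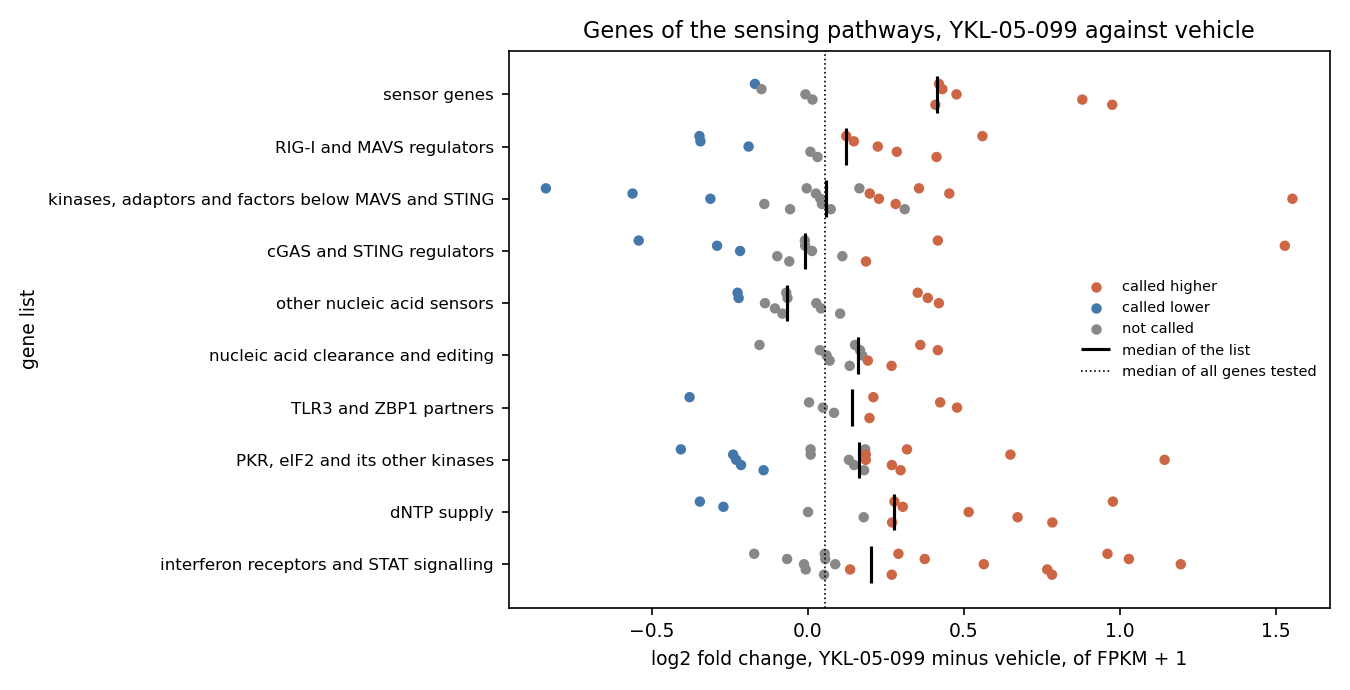
Log2 fold change between YKL-05-099 and vehicle on the log2(FPKM + 1) scale for each tested gene (points) of the sensor genes and each pathway list, coloured by whether limma called it, with vertical bars at the median of each list and a dotted line at the median of all genes tested, 0.05. Among the regulators of RIG-I and MAVS 6 of 11 were higher and 3 lower, and among interferon receptors and STAT genes 10 of 18 were higher and 0 lower, beside 28.0% higher and 15.1% lower of all genes tested.

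Interferon genes, including those that these sensors are known to induce, were listed at or near 0. Of 21 interferon genes, 20 were listed at 0 in all 9 libraries, Ifnb1 included. The exception was Ifne, with a highest value of 0.0552 FPKM, named here after its values were seen. Of 18 genes for interferon receptors and STAT signalling, 10 were higher and 0 lower, beside 28.0% and 15.1% of all genes. The list's median log2 fold change was 0.20. The split was 7 higher and 1 lower under median-of-ratios scaling. It was 6 higher and 0 lower under quantile normalization and also without the filter on low values. With the pan-leukocyte covariate 3 were higher, with the macrophage covariate 2 were, and 0 were lower with either. Irf9, for the DNA-binding partner in the complex that recognises the ISRE, rose from 9.29 ± 0.401 to 19.99 ± 0.874 FPKM. Stat2, for another partner in it, averaged 3.91 ± 0.469 FPKM in vehicle and rose to 8.54 ± 0.930 FPKM. Isg15, for the ubiquitin-like interferon-induced modifier, rose from 7.34 ± 0.980 to 13.3 ± 0.576 FPKM, and Usp18, for the protease that removes it, from 0.414 ± 0.0902 to 2.30 ± 0.790 FPKM. Usp18 was under 1 FPKM in every vehicle library and, like Zbp1, passed the filter only through the treated group.

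In the cultured library no sensor gene stood apart by the rule of size, which asks for a level beyond every one of the 8 mouse libraries and a distance of at least 2 log2(FPKM + 1) units from the vehicle mean. With a single cultured library there is no test. By that rule 5.14% of 12296 genes stood apart, and 73.6% lay outside the range of the 8 mouse libraries by any amount. Of the sensor genes 7 of 10 lay outside that range. The 5 below it were Ddx58, Ifih1, Mavs, Tlr3 and Zbp1, as were 36.2% of all genes, and the 2 above it were Tmem173 and Samhd1, as were 37.4%. On the log2(FPKM + 1) scale Tlr3 was the farthest, at 1.58 FPKM in culture against a lowest mouse library of 4.85 FPKM, a difference of -1.48 log2 units from the vehicle mean. At a limit of 1 log2 unit it was the only sensor gene apart, where 20.2% of genes were. By ratio of FPKM Zbp1 was farther, with a vehicle mean 4.83 times its cultured level against 3.96 times for Tlr3. Zbp1 was at 0.286 FPKM and Mavs at 22.7 FPKM, whereas Tmem173 was at 20.6 FPKM and Samhd1 at 33.5 FPKM. Dhx58 at 1.35 FPKM, Mb21d1 at 2.48 FPKM and Eif2ak2 at 9.98 FPKM lay within the range of the mouse libraries. Samhd1 in place of Mavs was the most abundant of the 10 genes in culture. Ddx58 was at 12.7 FPKM and Ifih1 at 5.56 FPKM, each nearer the vehicle group than the treated group. The cultured library also held the lowest summed macrophage and pan-leukocyte markers of all 9 libraries, and their part in these differences was not tested.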

How the data were processed

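Stranded mRNA libraries were sequenced as read pairs on a NovaSeq instrument and demultiplexed with bcl2fastq 2.19, per the submitters' processing notes, which also name GRCm38. The authors deposited FPKM per gene for 9 libraries; the aligner, the quantification tool and its strand setting are not stated in the notes. FPKM are scaled to each library, so a gene's value also moves when abundant genes change, and they are not counts. The depths given are approximate, from the step of the lowest values of 5751 single-transcript genes of at least 2 kb. Of 48302 genes or loci, 65 repeated an identifier and 7 had a failed status, and these were left out.

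A gene was tested if 4 or more of the 8 mouse libraries gave it an FPKM of 1 or higher. The test was limma 3.58.1 (R 4.3.3) with a mean-variance trend on log2(FPKM + 1), two-sided, with Benjamini-Hochberg adjustment over all 11788 genes. Fold changes on that scale understate the change of low genes. The fit was tested on simulated data. The cultured library has no replicate and entered no test. There were 0 identical pairs of libraries.

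All 10 members were named. From each pathway list the up to 4 called genes with the smallest p were named, apart from an item that is not reported here, and among interferon genes Ifnb1 and any gene with at least 0.1 FPKM. The members and lists were chosen with earlier results of these data known. Alternatives covered the pseudocount, the filter, 3 scalings, the libraries fitted, a replicate block, 2 marker covariates, the variance model and leaving out each library. Promoter sequences are from RefSeq (GRCm38.p6). Coordinates are 1-based from GENCODE M21 on GRCm38. Protein sequences were not analysed here.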

Additional observations from a re-analysis of the deposited data

How the results depend on the processing

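The rises of Ddx58, Ifih1, Dhx58, Mb21d1, Zbp1 and Eif2ak2 kept their calls in all 8 fits that left out a library. The number of sensor genes called was 7 with both other pseudocounts, under all 3 scalings, with all 9 libraries in the fit and without the trend. It was 4 without the filter on low values, 4 with a mean FPKM of at least 5, under which 7 were tested, and 1 with either the pan-leukocyte or the macrophage covariate. Over all genes, 3353 were called without the filter, 575 with the pan-leukocyte covariate and 550 with the macrophage covariate, in place of 5089. Median-of-ratios scaling called 2474 genes higher and 2499 lower, and quantile normalization 2506 and 2414, in place of 3304 and 1785. Genes apart in culture numbered 1238 with a pseudocount of 0.1 and 2480 at 1 log2 unit, where 1 sensor gene was apart. Differences under the test's threshold turned in sign. Mavs was -0.0457 under median-of-ratios scaling, -0.0168 under quantile normalization, -0.33 with the pan-leukocyte and -0.29 with the macrophage covariate, and from -0.0443 to 0.125 when a library was left out. Tmem173 was 0.0059 under TPM scaling, 0.0833 and 0.11 with these covariates, and from -0.0442 to 0.0205 when a library was left out. Tlr3 was 0.0590 and 0.0384 with the covariates. The cause of these shifts was not tested. Of 180 pathway-list counts under alternatives, 154 were within 1.5 times the reported count. Of the 26 that moved, 18 were under the 2 marker covariates, where the count of every list moved. With either covariate each list held from 0 to 3 called genes, and the regulators of RIG-I and MAVS held 0 in place of 9.

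With a replicate block, 4830 genes and 6 sensor genes were called, Samhd1 being lost (adjusted p = 0.0536, limma). The replicate numbers share only a number: same-numbered libraries correlated at -0.02, 0.13, -0.05 and 0.17 in their deviations over 11788 genes, and 1 of 4 matched its own number best. Dhx58, Mb21d1 and Zbp1 were low, where unknown counting error limits precision, and 4 libraries a group limit all tests.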
